A study of Mus musculus with 16 samples.

Results

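The respiratory chain is a set of protein complexes in the inner mitochondrial membrane that pass electrons from NADH and succinate to oxygen and use the energy to make ATP. Complex I oxidises NADH, complex II oxidises succinate, complex III passes electrons to cytochrome c, complex IV (cytochrome c oxidase) reduces oxygen, and complex V is the ATP synthase. Most subunits are encoded in the nucleus, and mouse embryonic stem cells, which rely much on glycolysis, remodel these complexes when they differentiate.

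The genes described here are the nuclear genes whose name on the array begins with Nduf (complex I), Sdha to Sdhd (II), Uqcr (III), Cox4 to Cox8 (IV) or Atp5 (V). This name rule matched 82 genes, and each was read from its brightest probe among those well above background on all 16 arrays. Of the 82 genes, 79 had such a probe: 36 of complex I, 4 of complex II, 7 of complex III, 14 of complex IV, 15 of complex V and 3 that are no subunit, out of 17786 genes tested in all. The 3 are the assembly factor Ndufaf1, Cox4nb (now Emc8, a subunit of the endoplasmic reticulum membrane complex) and Atp5s (now Dmac2l). Ndufa4 was counted with complex I by its name, although its protein is now placed in complex IV. The 3 genes without such a probe were tissue isoforms of complex IV. Cox8b, of heart and skeletal muscle, was well above background on 0 arrays. Cox4i2, of lung, was well above background on 3 arrays. Cox6a2, of heart and skeletal muscle, was well above background on 12 arrays: 1 of sh-Control vehicle, 1 of sh-SIRT1 vehicle, 4 of sh-Control RA and 6 of sh-SIRT1 RA. The levels of these 3 genes are given only as these counts.

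The cells were E14 mouse embryonic stem cells, and all of them carried a lentiviral vector with a stably expressed short hairpin, either a control hairpin (sh-Control) or one against Sirt1 (sh-SIRT1), which encodes a deacetylase that uses NAD. They were kept in serum medium with what the labels call leukocyte inhibitory factor, and received ethanol (vehicle) or 20 nM retinoic acid (RA, without a stated isomer) over 2 days. There were 3 arrays of sh-Control vehicle, 3 of sh-SIRT1 vehicle, 4 of sh-Control RA and 6 of sh-SIRT1 RA. The series asks whether loss of SIRT1 strengthens RA-induced differentiation. The design speaks of duplicates without saying which arrays they are, so p-values rest on array-to-array spread, part of which may be technical. Some arrays lay close together. The SD over genes of the log2 difference was 0.21 between sh-Control RA arrays 3 and 4, and 0.635 to 0.737 for the other pairs of that group. Among sh-SIRT1 RA arrays it was 0.27 to 0.36 within arrays 1 and 2 and within arrays 3 to 6, and 0.53 to 0.62 across. In vehicle it was 0.29 and 0.32 between arrays 2 and 3, and 0.52 to 0.56 with array 1. If close arrays are duplicates, the p-values are too small. Effects of the hairpin and of a line's own past cannot be told apart. In RNA of a whole culture, fewer cells with a transcript and less of it per cell cannot be told apart.

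Values are log2 of the processed signal minus the 75th percentile of the array, so a difference of 1 is 2-fold. Between 60.3 and 68.6% of the spots of an array were well above background, and the 75th percentile lay between 684 and 1155 intensity units. The hairpin followed its label: Sirt1 fell by 1.81 ± 0.15 (log2 difference ± SE) in vehicle and by 2.18 ± 0.12 under RA (limma adjusted p = 3.95e-05 and 2.43e-07). All 10 stem cell markers looked at, among them Pou5f1, Sox2 and Nanog, were well above background on all arrays. The sh-Control RA arrays 2 to 4 stood apart: the Y-linked gene Ddx3y was at -6.91, -8.01 and -8.12 there, while array 1 had 0.23 and the 6 vehicle arrays ranged from 0.33 to 1.60. Counts of called genes that rest on this group are therefore also given with array 1 as its single array, which is then assumed to vary like the other groups. Array 1 stood apart in other genes. There the median deviation of 12 primitive endoderm markers from their own means was 3.12. It was 1.08, -0.24 and -0.16 on arrays 2 to 4 and 0.63 to 1.67 in sh-SIRT1 RA cells. The 4 members on chromosome 8 had -0.36 on array 1 and -0.06 to -0.04 on arrays 2 to 4.

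Promoter sequence is shown first for 4 members on which the values below turn: Cox7a1, which rose under RA, Atp5l and Ndufc2, which had the largest falls in sh-SIRT1 cells among members with an entry in the RefSeq promoter table used here, and Ndufb4, which with Sdha had the most matches, 3, to the binding letters of NRF1, a regulator of respiratory genes. Each is the 250 bases before the annotated start, 5′ to 3′, from RefSeq on build GRCm38.p6, and capitals mark matches on either strand to GCGCA and GCGC around any 1 base (NRF1), CCGGAAG (ETS factors such as GABPA), AAGATGGC (YY1) or TCAAGGTCA (the ERR receptors), which share no overlapping match in these 4 stretches.
Cox7a1, chr7:30183921-30184170, plus strand: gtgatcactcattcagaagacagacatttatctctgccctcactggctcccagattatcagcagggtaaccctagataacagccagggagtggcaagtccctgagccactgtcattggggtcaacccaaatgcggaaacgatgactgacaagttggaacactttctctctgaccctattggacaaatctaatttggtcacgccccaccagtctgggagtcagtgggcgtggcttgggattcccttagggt
Ndufb4, chr16:37654369-37654618, minus strand: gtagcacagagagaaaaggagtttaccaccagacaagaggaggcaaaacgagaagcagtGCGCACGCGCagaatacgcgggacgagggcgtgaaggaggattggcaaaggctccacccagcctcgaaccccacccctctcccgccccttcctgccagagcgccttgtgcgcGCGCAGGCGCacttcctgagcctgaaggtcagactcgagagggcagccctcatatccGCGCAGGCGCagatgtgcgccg
Atp5l, chr9:44920743-44920992, minus strand: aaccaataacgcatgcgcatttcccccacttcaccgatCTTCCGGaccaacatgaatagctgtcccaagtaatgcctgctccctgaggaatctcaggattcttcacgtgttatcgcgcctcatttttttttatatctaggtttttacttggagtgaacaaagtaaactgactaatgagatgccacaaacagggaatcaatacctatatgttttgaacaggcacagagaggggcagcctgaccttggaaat
Ndufc2, chr7:97399753-97400002, plus strand: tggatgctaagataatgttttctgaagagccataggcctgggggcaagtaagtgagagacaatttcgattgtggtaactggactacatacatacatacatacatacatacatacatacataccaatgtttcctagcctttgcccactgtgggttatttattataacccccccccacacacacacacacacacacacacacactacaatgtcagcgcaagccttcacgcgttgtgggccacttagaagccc
Ndufb4 held 3 NRF1 matches in this stretch, Atp5l held 1 ETS match, and the printed stretches of Cox7a1 and Ndufc2 held no match. Promoters, read from 250 bases before to 50 after the start, were found for 66 of the 79 members. A member or gene was counted where any of its promoters held the letters. The NRF1 letters occurred in 25.8% of these members against 5.19% of the 27025 genes of the table (4.6% of its 32851 promoters), and the ETS letters in 25.8% against 9.93% of genes (8.86% of promoters). The YY1 letters occurred in 15.2% against 3.19% (2.75%) and the ERR letters in 3.03% against 0.466% (0.423%). The median log2 difference under RA in sh-SIRT1 cells was -0.405 for the 17 members with the NRF1 letters and -0.48 for those without, and -0.51 and -0.47 with and without the ETS letters. In sh-Control cells these medians were -0.245 and -0.27 for NRF1 and -0.30 and -0.25 for ETS.

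Most of these genes fell under RA in sh-SIRT1 cells, and 42 of 79 in sh-Control cells, when arrays were scaled to their 75th percentile, but not under quantile normalization, which forces all arrays to 1 distribution. In sh-Control cells 42 of 79 members fell and 2 rose, where 27.2% of all genes tested fell and 19.8% rose (47% in all), with a median log2 difference of -0.24 over the members and -0.14 over all genes. Under quantile normalization 4 members fell and 14 rose (23.1% and 20.5% of all genes), 11 of the 42 falls had the other sign, and the median was 0.03 against -0.08 for all genes. In sh-SIRT1 cells 67 members fell and 2 rose, where 35.1% of all genes fell and 23.2% rose (58.3% in all), with a median of -0.47 against -0.13. Under quantile normalization 21 fell and 6 rose (30.4% and 23.8% of all genes) and 17 of the 67 falls had the other sign, with a median of -0.11 against -0.09. Scaling by the array median, which moved the median of all genes to -0.29 and -0.42, gave 58 and 77 falls in the lines in that order (37.7% and 50.7% of all genes fell), with medians of -0.39 and -0.75 over the members. Normexp background correction gave 20 and 58 falls (14.9% and 25.1% of all genes); in sh-Control cells it called 22 members in either direction, near the 25.8% called over all genes. With sh-Control RA array 1 alone, 15 members fell and 3 rose in sh-Control cells (22.4% and 16.4% of all genes), with a median of -0.21, while in sh-SIRT1 cells that fit gave 69 falls and 2 rises (37% and 24.5%). With each array centred on the median of the members, a setting added after the data were seen, 12 and 35 members passed in either direction in sh-Control and sh-SIRT1 cells (39.5% and 59.8% of all genes). Centring subtracts any shift that the members share, so fewer calls follow from it and it cannot tell whether they fell as a group. A fit of only the groups compared also called far fewer members in sh-Control cells, as given in the closing section.

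The upper part of the intensity distribution differed between treatments: the 95th percentile lay 3.63 to 3.74 above the 75th (log2) on the RA arrays and 3.90 to 4.04 above it on the vehicle arrays, with no overlap. The 99th percentile lay 5.925 to 6.14 above the 75th on the RA arrays and 6.31 to 6.49 above it on the vehicle arrays. Many members, such as Atp5a1 at 7.615 to 7.766 in sh-Control vehicle, lie in this bright part. They were set against all genes and not against genes of like signal. The part of this difference between treatments in the falls was not tested. The median deviation of the 79 members from their own means over 16 arrays was 0.28, 0.12 and 0.14 on the sh-Control vehicle arrays and 0.35, 0.22 and 0.22 on the sh-SIRT1 vehicle arrays. It was -0.01, -0.11, -0.005 and -0.05 on the sh-Control RA arrays and lay between -0.23 and -0.12 on the 6 sh-SIRT1 RA arrays. The groups did not overlap between treatments, and the sh-SIRT1 RA arrays were all below the sh-Control RA arrays. The nearest arrays of the 2 RA groups were at -0.114 and -0.121, a small gap beside the pooled within-group SD of 0.057. All genes tested also separated by treatment, by less, with medians of 0.065 to 0.108 on the vehicle arrays and -0.089 to 0 on the RA arrays. Array 1 was the highest of both vehicle groups, and without sh-Control vehicle array 1 the count in sh-Control cells was 26 in place of 44. Within slides, of which 4 were used, the members' median for RA against vehicle was -0.31 and -0.18 on the 2 slides that hold both groups of sh-Control cells, where all genes had -0.11 and -0.15, so that on the latter slide the members were close to all genes. In sh-SIRT1 cells it was -0.41, -0.57 and -0.43, where all genes had -0.15, -0.19 and -0.13.

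**Figure D1:**
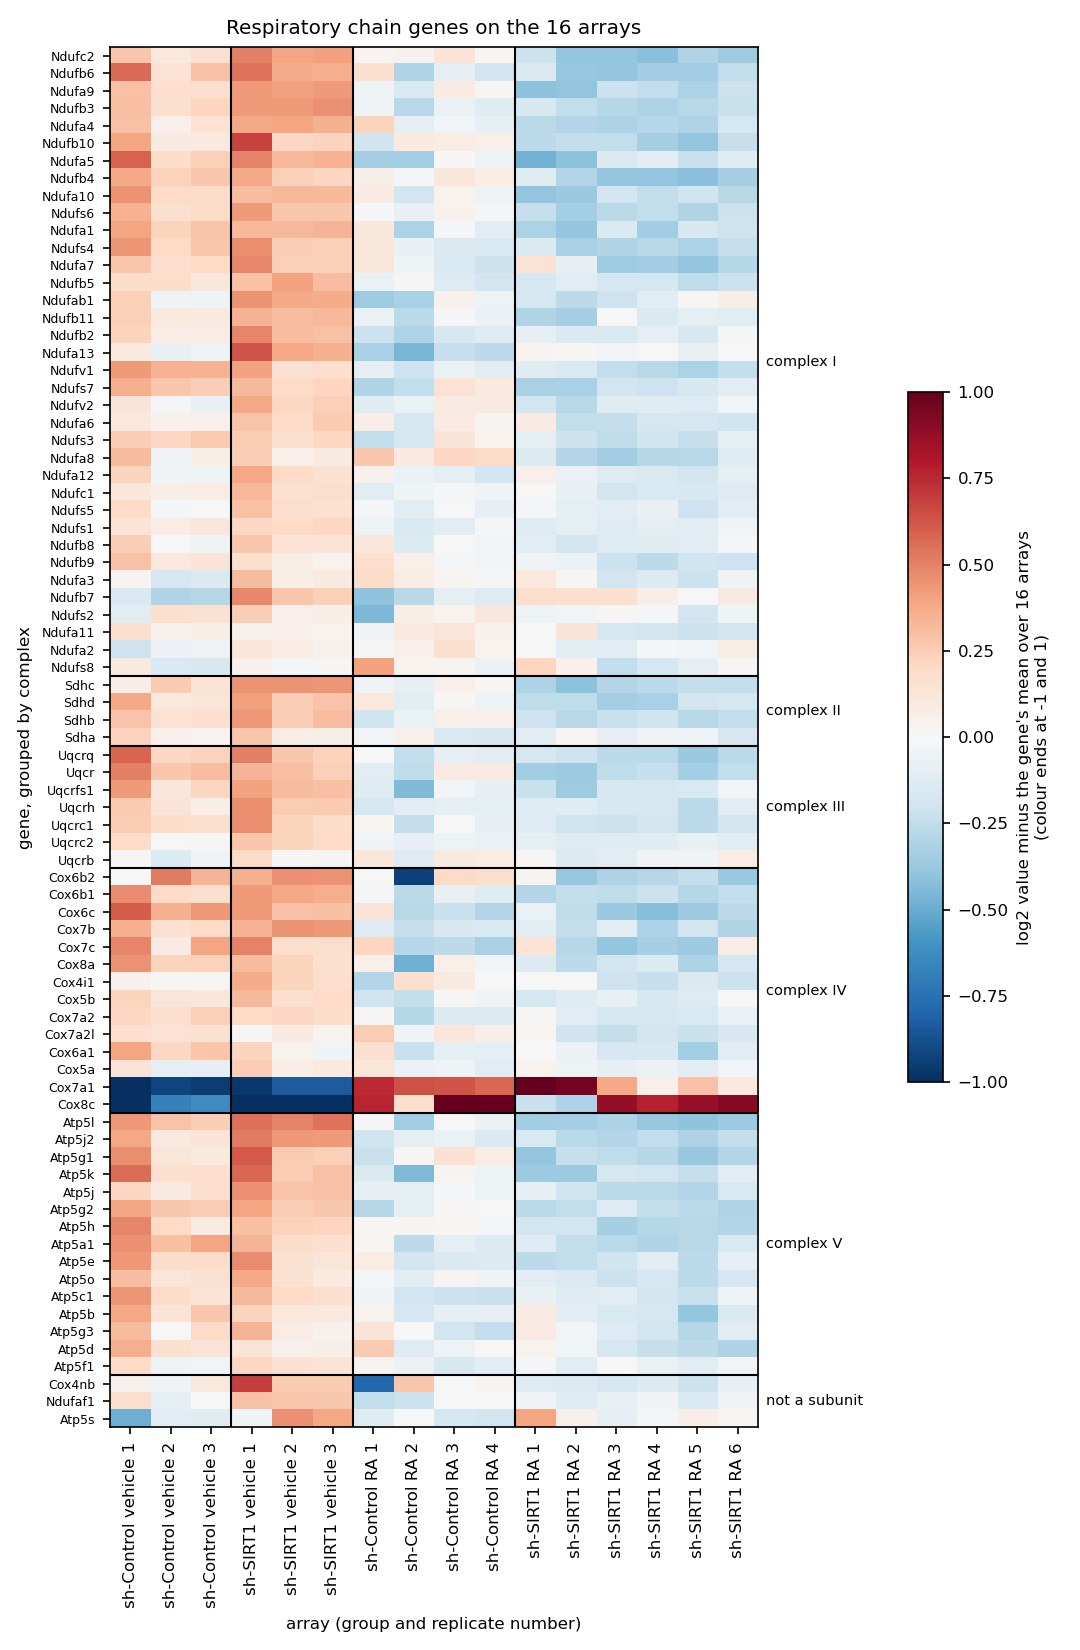
Each row is 1 of the 79 genes, grouped by complex, and each column 1 of the 16 arrays; colour is the log2 value (75th percentile scaling) minus the mean of that gene over the arrays. Most rows are above their mean on the vehicle arrays and below it on the sh-SIRT1 RA arrays, while Cox7a1 and Cox8c run the other way.

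**Figure D2:**
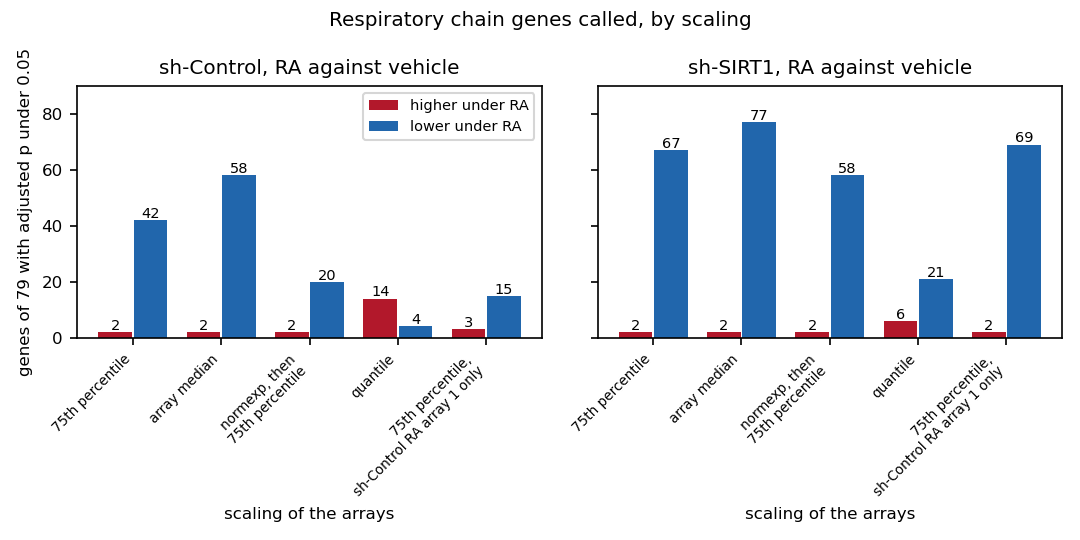
Bars give the number of the 79 genes that passed at an adjusted p of 0.05 (limma) in each direction for RA against vehicle, by scaling of the arrays, in sh-Control cells on the left and sh-SIRT1 cells on the right. Falls number 42 and 67 with the 75th percentile and 4 and 21 with quantile normalization.

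By complex, in sh-Control cells, 17 of 36 complex I genes fell, with a median log2 difference of -0.21, as did 1 of 4 of complex II, 5 of 7 of complex III (median -0.27), 8 of 14 of complex IV (median -0.35) and 11 of 15 of complex V (median -0.33). In sh-SIRT1 cells the falls were 32 of 36 (median -0.47), 4 of 4 (median -0.57), 6 of 7 (median -0.49), 10 of 14 (median -0.36) and 13 of 15 (median -0.46). Of the 7 core subunits of complex I, which carry the flavin and the iron-sulfur clusters, 4 fell in sh-Control cells and 5 in sh-SIRT1 cells. With sh-Control RA array 1 alone, the falls in sh-Control cells for complexes I to V were 6, 1, 1, 2 and 4, and 4 of the core subunits. In that fit complexes I, III and IV were below the share of all genes given above for it, and complexes II and V near it. Quantile normalization left falls of 1, 0, 0, 2 and 1 genes for complexes I to V in sh-Control cells and 11, 3, 1, 3 and 3 in sh-SIRT1 cells. Over all genes 23.1% and 30.4% fell under it. In sh-Control cells every complex was below that share, and in sh-SIRT1 cells complex I was near it and complexes III to V below it. The medians under it were 0.07, -0.01, 0.02, -0.03 and -0.02 in sh-Control cells, and -0.10, -0.25, -0.12, 0.04 and -0.06 in sh-SIRT1 cells. Complex II, succinate dehydrogenase, thus held the lowest median in sh-SIRT1 cells under both scalings; no test compared the complexes.

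**Figure D3:**
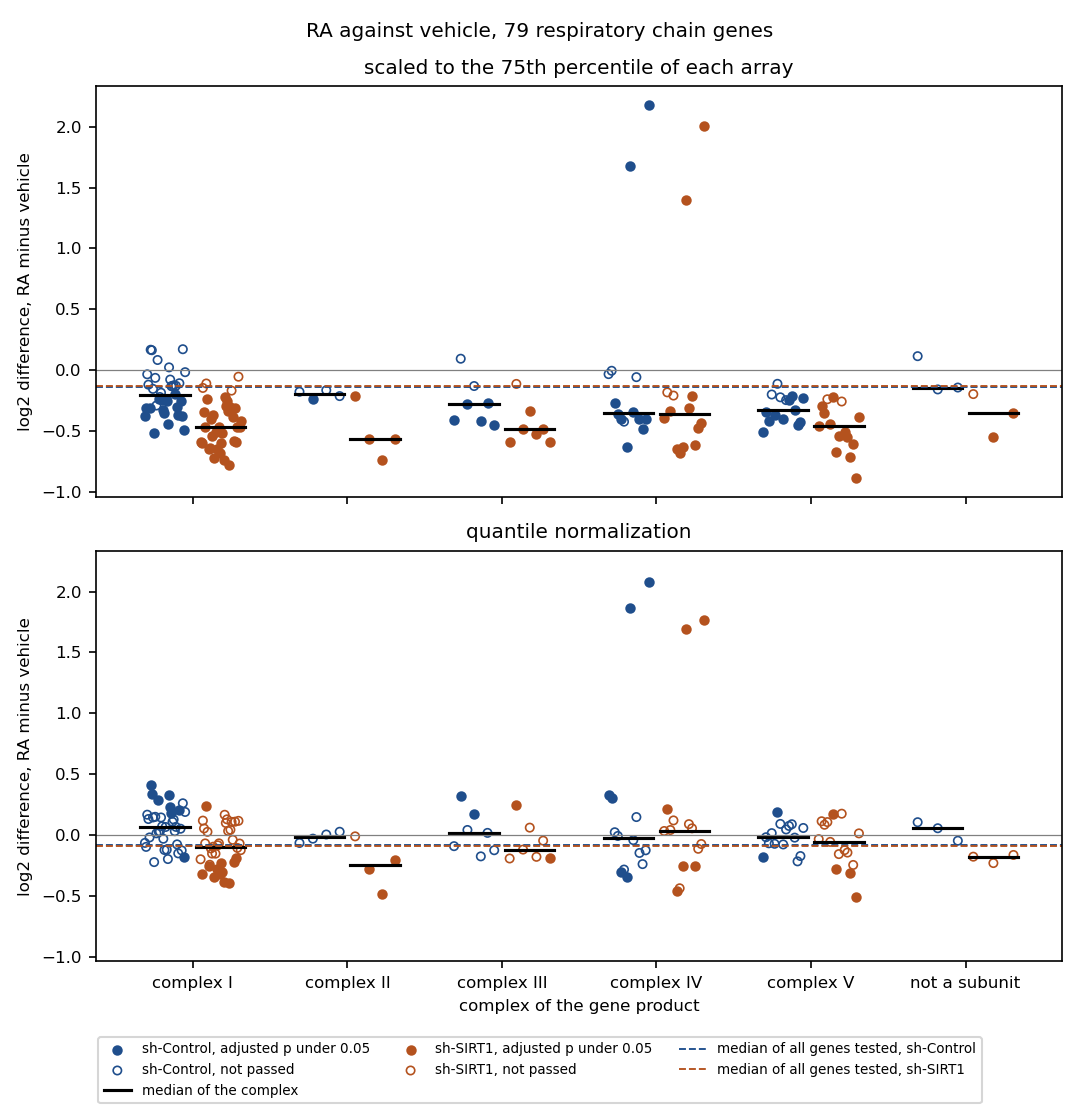
Points are the log2 differences of RA minus vehicle for the 79 genes, by complex, in sh-Control (blue) and sh-SIRT1 (orange) cells; filled points passed at an adjusted p of 0.05, black bars are medians and dashed lines the median of all genes tested. The upper panel, scaled to the 75th percentile, lies mostly below 0, while the lower panel, with quantile normalization, has medians from -0.25 to 0.07.

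Cox7a1 and Cox8c rose in both lines, and passed under all 29 alternatives tried. Not all of these could end a call: the series matrix holds the same intensities, and some fits leave out an array of a group not compared. Cox7a1 encodes the form of subunit 7a found in heart and skeletal muscle. It was at 2.50, 2.81 and 2.78 in sh-Control vehicle and 4.47, 4.37, 4.36 and 4.30 in sh-Control RA cells. It was at 2.77, 2.90 and 2.90 in sh-SIRT1 vehicle cells and between 3.78 and 5.08, with a median of 4.07, in sh-SIRT1 RA cells. Treated and untreated arrays did not overlap in either line, and sh-SIRT1 RA arrays 1 and 2 were the highest of all. Cox7a1 rose by 1.68 ± 0.25 (3.21-fold, limma adjusted p = 1.06e-04) in sh-Control cells and by 1.40 ± 0.23 (2.64-fold, adjusted p = 1.41e-04) in sh-SIRT1 cells, and by 1.86 and 1.69 under quantile normalization. With sh-Control RA array 1 alone the rise in sh-Control cells was 1.78 (adjusted p = 0.00702). The 2 rises differed by -0.28 ± 0.34 (adjusted p = 0.694).

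Cox8c encodes the testis form of subunit 8, and its probe lies at chr12:100395762-100395820 (build mm7, as for all probe positions here). Its values were -3.73, -2.69 and -2.64 in sh-Control vehicle and -1.25, -1.84, -0.16 and -0.11 in sh-Control RA cells. They were -3.96, -3.30 and -3.33 in sh-SIRT1 vehicle cells and between -2.32 and -1.10 in sh-SIRT1 RA cells, with a median of -1.19. Vehicle and RA arrays did not overlap. Cox8c was dim in vehicle, where the median spot of an array lay at -3.84 to -3.54 on this scale. The size of its rise depended on the background correction. The rise was 2.18 ± 0.45 (4.53-fold, adjusted p = 0.00141) in sh-Control and 2.00 ± 0.42 (4.01-fold, adjusted p = 9.54e-04) in sh-SIRT1 cells, 1.60 and 1.42 with normexp, and 1.77 in sh-Control cells with their RA array 1 alone (adjusted p = 0.0323). Between the lines Cox8c differed by -0.51 ± 0.48 in vehicle (adjusted p = 0.573) and by -0.69 ± 0.38 under RA (adjusted p = 0.227), and with the replicate number as a block these became calls at adjusted p = 0.0474 and 0.00443.

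With the 75th percentile, other forms of these and neighbouring subunits fell or did not pass, and several of the falls ended under quantile normalization. Cox7a2, the widely expressed form of subunit 7a, fell by 0.34 ± 0.08 in the sh-Control line and by 0.31 ± 0.07 in the sh-SIRT1 line (adjusted p = 0.00281 and 0.00223), but under quantile normalization its differences were -0.04 and 0.09 and neither passed, and with sh-Control RA array 1 alone the first had an adjusted p of 0.156. Cox8a, the widely expressed form of subunit 8, fell by 0.41 ± 0.12 and 0.43 ± 0.11 (adjusted p = 0.0123 and 0.00378), but under quantile normalization its differences were -0.13 and -0.07 and neither passed, and without sh-Control vehicle array 1 the first was -0.33 with an adjusted p of 0.0604. With sh-Control RA array 1 alone Cox8a stood at -0.26 in sh-Control cells (adjusted p = 0.13). Cox4i1, the main form of subunit 4, stood at -0.03 ± 0.11 in sh-Control cells (adjusted p = 0.816) and fell by 0.39 ± 0.10 in sh-SIRT1 cells (adjusted p = 0.00366), but quantile normalization gave 0.33 and 0.03. Cox6b1 fell in both lines, by 0.40 ± 0.09 and 0.65 ± 0.08 (adjusted p = 0.00167 and 1e-05), and by 0.30 and 0.46 under quantile normalization, although with sh-Control RA array 1 alone the first had an adjusted p of 0.0726. Cox6b2, the testis form of subunit 6b, stood at -0.42 ± 0.22 in sh-Control cells (adjusted p = 0.132) and fell by 0.68 ± 0.21 in sh-SIRT1 cells (adjusted p = 0.0115), where quantile normalization gave -0.44 with an adjusted p of 0.0953.

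Of the falls in sh-Control cells, 4 passed under quantile normalization too: those of Cox6c, Cox6b1, Atp5a1 and Ndufv1. Cox6c, a small subunit of complex IV, was at 6.63, 6.37 and 6.45 in vehicle and 6.15, 5.74, 5.79 and 5.72 under RA, with no overlap, and array 1 was the highest of the RA group. It fell by 0.63 ± 0.12 (adjusted p = 5.85e-04), but with sh-Control RA array 1 alone the difference was -0.33 with an adjusted p of 0.102. Atp5a1 encodes the alpha subunit of the catalytic head of ATP synthase. It was at 7.77, 7.62 and 7.71 in vehicle and 7.32, 7.05, 7.22 and 7.17 under RA, again with no overlap. It fell by 0.51 ± 0.08 (adjusted p = 2.51e-04). Ndufv1 encodes the subunit of complex I that binds NADH and flavin. It was at 5.78, 5.70 and 5.70 in vehicle and 5.26, 5.15, 5.29 and 5.24 under RA, with no overlap, and fell by 0.49 ± 0.08 (adjusted p = 2.26e-04). Both Atp5a1 and Ndufv1 passed in sh-Control cells under all 29 alternatives tried, among them sh-Control RA array 1 alone (-0.37 and -0.47).

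In sh-SIRT1 cells the 6 largest falls were those of Atp5l, Ndufc2, Ndufb6, Sdhc, Ndufa9 and Atp5j2, from -0.89 to -0.71, and all 6 passed under quantile normalization, with -0.51 to -0.31. Atp5l encodes subunit g of the membrane part of ATP synthase. In sh-SIRT1 cells it was at 5.33, 5.27 and 5.32 in vehicle and between 4.38 and 4.47, with a median of 4.42, under RA. In sh-Control cells it was at 5.22, 5.07 and 5.03 in vehicle and 4.77, 4.43, 4.77 and 4.72 under RA, where array 2 was the lowest. The groups did not overlap in either line. Atp5l fell by 0.89 ± 0.08 (1.85-fold, adjusted p = 7.83e-07) in sh-SIRT1 and by 0.43 ± 0.09 (1.35-fold, adjusted p = 0.00123) in sh-Control cells. The difference of -0.46 ± 0.12 between these falls missed the threshold (adjusted p = 0.0501).

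The RA response differed between the lines for 4 of the 79 members, where 3.63% of all genes tested were called (1.73% higher and 1.9% lower): Ndufc2, Sdhc, Ndufa4 and Ndufa9, each with a larger fall in sh-SIRT1 cells. Of all members, 72 had a lower RA difference in sh-SIRT1 than in sh-Control cells; the median difference of the responses was -0.21, against -0.03 over all genes, and -0.11 under quantile normalization, which called 2 members, both lower (1.57% and 1.52% of all genes higher and lower). Of the 67 falls in sh-SIRT1 cells 41 were also called in sh-Control cells and 26 were not, a split that is no test of a difference between lines. Taking sh-Control RA array 1 alone, 14 falls were called in both lines and 55 in sh-SIRT1 cells without a call of a fall in sh-Control cells, and 70 members had the lower difference in sh-SIRT1 cells. The slide as a fixed block left 1 of the 4 calls, Ndufc2 (-0.63, adjusted p = 0.0482; 0.186% of all genes lower), while Sdhc, Ndufa4 and Ndufa9 had adjusted p-values of 0.0632, 0.0812 and 0.109. The replicate block raised the members called to 10 (4.47% of all genes lower), which include these 4 and Atp5g1 (-0.44, adjusted p = 0.0403). With sh-Control RA array 1 alone, 1 member, Ndufa4, passed (0.546% of all genes higher and 0.562% lower), normexp called 0 (9 at an unadjusted p under 0.05 in limma; 0.0394% of all genes lower), and centring on the members' median gave 7 calls (12.7% of all genes). Leaving out single arrays gave 2 to 12 calls: 12 without sh-Control vehicle array 1, 11 without sh-Control RA array 1, and 2 without any 1 of sh-Control vehicle arrays 2 and 3, the 3 sh-SIRT1 vehicle arrays and sh-Control RA arrays 3 and 4.

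Ndufc2 encodes an accessory subunit in the membrane arm of complex I (probe at chr7:93438306-93438365). It was at 5.11, 4.94 and 4.99 in sh-Control vehicle and 5.34, 5.23 and 5.24 in sh-SIRT1 vehicle cells. Under RA it was at 4.86, 4.87, 4.96 and 4.85 in sh-Control cells and between 4.42 and 4.62 in sh-SIRT1 cells, with a median of 4.46. The 2 RA groups did not overlap, and neither did the 2 vehicle groups, in which sh-SIRT1 cells were the higher. It fell by 0.78 ± 0.07 (1.72-fold, adjusted p = 5.48e-07) in sh-SIRT1 cells, while in sh-Control cells its difference was -0.13 ± 0.07 (adjusted p = 0.177). The responses differed by -0.66 ± 0.10 (adjusted p = 0.00674), by -0.52 under quantile normalization, and by -0.63 with sh-Control RA array 1 alone (adjusted p = 0.0515).

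Sdhc encodes one of the membrane anchors of complex II (probe at chr1:171099620-171099679). It was at 2.80, 2.98 and 2.86 in sh-Control vehicle and 3.18, 3.17 and 3.16 in sh-SIRT1 vehicle cells. Under RA it was at 2.69, 2.64, 2.78 and 2.74 in sh-Control cells and between 2.32 and 2.49 in sh-SIRT1 cells, with a median of 2.44. It was thus higher in sh-SIRT1 cells in vehicle and lower in them under RA, with no overlap in either treatment. The line difference was 0.29 ± 0.08 in vehicle (adjusted p = 0.03) and -0.28 ± 0.06 under RA (adjusted p = 0.00508), and the responses to RA differed by -0.57 ± 0.10 (adjusted p = 0.00919). Quantile normalization gave 0.25 (adjusted p = 0.0762), -0.24 and -0.49 (adjusted p = 0.0232) for these. Leaving out any single vehicle array other than sh-Control array 2 also ended the call in vehicle, with adjusted p-values of 0.0669 to 0.104, and with sh-Control RA array 1 alone the line difference under RA and the difference of responses had adjusted p-values of 0.117 and 0.0619. The remaining complex II genes, named to complete it after their values were seen, Sdha (flavin subunit), Sdhb (iron-sulfur subunit) and Sdhd (the other anchor), fell in sh-SIRT1 cells by 0.21 ± 0.08, 0.57 ± 0.07 and 0.57 ± 0.08 (adjusted p = 0.0363, 1.77e-05 and 4.17e-05), and under quantile normalization Sdha stood at -0.01 (adjusted p = 0.905) while Sdhb and Sdhd passed.

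Ndufa4 and Ndufa9, an accessory subunit of the peripheral arm of complex I, had the smaller differences of response, -0.50 ± 0.12 and -0.48 ± 0.11 (adjusted p = 0.0362 and 0.0287). Ndufa4 was at 5.52, 5.28 and 5.37 in sh-Control vehicle, 5.62, 5.63 and 5.58 in sh-SIRT1 vehicle, 5.46, 5.14, 5.20 and 5.15 in sh-Control RA and 4.92 to 5.06 in sh-SIRT1 RA cells, with a median of 4.94. Ndufa9 was at 5.27, 5.15 and 5.15, at 5.41, 5.39 and 5.41, at 4.93, 4.83, 5.06 and 4.99, and at 4.57 to 4.77 with a median of 4.70, in the same order. Both genes were lowest in sh-SIRT1 RA cells, with no overlap with any other group. Neither passed under quantile normalization (adjusted p = 0.0712 and 0.119), and with sh-Control RA array 1 alone the differences were -0.72 and -0.46 (adjusted p = 0.0318 and 0.121). The call of Ndufa9 ended without any 1 of 7 arrays, all in the vehicle or sh-Control RA groups, and that of Ndufa4 without any 1 of 11 arrays, with adjusted p-values up to 0.0877 and 0.108.

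**Figure D4:**
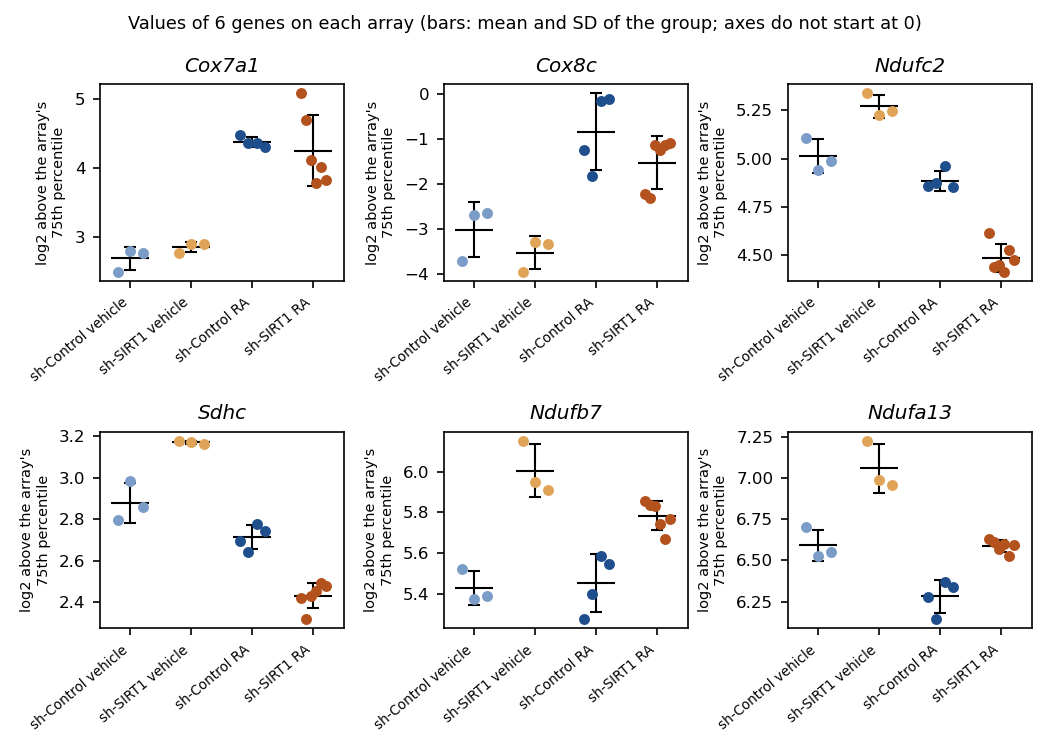
Points are the log2 values of 6 genes on each array in the 4 groups, with the mean and SD of the group in black. Cox7a1 and Cox8c are higher under RA in both lines, Ndufc2 and Sdhc are lowest in sh-SIRT1 RA cells, and Ndufb7 and Ndufa13 are higher in sh-SIRT1 than in sh-Control cells in both treatments.

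Between the lines, few members differed in vehicle. There 3 members were higher in sh-SIRT1 cells and 0 lower, against 4.41% and 4.26% of all genes tested (8.66% in all), with a median of 0.10 over the members and -0.01 over all genes. The 3 were Ndufb7, Ndufa13 and Sdhc. With the replicate block 8 were higher (8.95% of all genes) and 1, Cox8c, lower, scaling by the array median gave 13 higher (7.35%), and normexp gave 0 in limma's adjusted test (0.838%), with 7 at an unadjusted p under 0.05. Quantile normalization gave 2, both higher (4.18% and 3.38% of all genes higher and lower), and centring on the members' median gave 7 (14.4% of all genes). Within slides the members' median was -0.07 and 0.14, where all genes had -0.04 and 0.01. Leaving out sh-Control vehicle array 1, sh-Control RA array 1 or sh-SIRT1 RA array 1 gave 6, 5 and 5 calls.

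Ndufb7 and Ndufa13 are accessory subunits of complex I, and Ndufa13 is also known as the cell death regulator GRIM-19. Both lie on chromosome 8 (probes at chr8:82149973-82150032 and chr8:68348874-68348933). Ndufb7 was at 5.52, 5.37 and 5.39 in sh-Control vehicle, 6.15, 5.95 and 5.91 in sh-SIRT1 vehicle, 5.27, 5.40, 5.58 and 5.55 in sh-Control RA and 5.67 to 5.86 in sh-SIRT1 RA cells, with a median of 5.80. Ndufa13 was at 6.70, 6.52 and 6.55, at 7.23, 6.99 and 6.96, at 6.28, 6.14, 6.37 and 6.34, and at 6.53 to 6.63 with a median of 6.60, in the same order. In both treatments the sh-SIRT1 arrays of both genes lay above all sh-Control arrays. Ndufb7 was higher by 0.58 ± 0.10 in vehicle (1.49-fold, adjusted p = 0.00324) and by 0.33 ± 0.08 under RA (adjusted p = 0.00905). Ndufa13 was higher by 0.47 ± 0.09 (1.38-fold, adjusted p = 0.00645) and by 0.31 ± 0.07 (adjusted p = 0.00877), although with sh-Control RA array 1 alone the latter had an adjusted p of 0.106. Normexp ended all 4 of these calls (adjusted p = 0.0823 and 0.142 for Ndufb7, 0.165 and 0.149 for Ndufa13). The 928 genes tested on chromosome 8 had a median of 0.36 in vehicle and 0.25 under RA in this comparison. The other members there, Cox4i1 and Cox4nb, stood at 0.23 ± 0.11 and 0.37 ± 0.20 in vehicle (adjusted p = 0.234 and 0.293) and at -0.12 ± 0.09 and -0.03 ± 0.16 under RA (adjusted p = 0.367 and 0.93). With sh-Control RA array 1 alone Cox4nb was higher under RA by 0.64. That array had Cox4nb at 2.96, against 4.015, 3.75 and 3.77 on arrays 2 to 4 and 3.53 to 3.67 in sh-SIRT1 RA cells.

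Under RA, 14 members were lower and 2, Ndufb7 and Ndufa13, higher in sh-SIRT1 than in sh-Control cells, against 11.8% and 8.61% of all genes tested (20.4% in all), with a median of -0.12 against -0.04. Quantile normalization gave 8 lower and 2 higher (10.5% and 10.4% of all genes), with a median of -0.05 against -0.01, and sh-Control RA array 1 alone gave 5 lower and 2 higher (5.44% and 5.72% of all genes), with a median of -0.15. Of the 14 lower calls normexp kept 1 (3.19% of all genes lower), the array median 7 (9.02%) and the slide as a fixed block 9 (9.25%), and normexp kept 0 of the 2 higher calls. Without sh-Control RA array 3 the count was 9, and centring on the members' median gave 7 (20.1% of all genes). The largest difference was that of Ndufa8, an accessory subunit of complex I, at 3.59, 3.42, 3.52 and 3.51 in sh-Control RA and 2.97 to 3.20 in sh-SIRT1 RA cells, with a median of 3.04 and no overlap. It was lower by 0.44 ± 0.08 (adjusted p = 0.00241), and by 0.40 under quantile normalization. Ndufc2 followed with -0.40 ± 0.06 (adjusted p = 7.84e-04), the call among the 14 that passed under all 29 alternatives. Ndufb4, whose promoter is printed above, was lower by 0.38 ± 0.07 (adjusted p = 0.0024), but had an adjusted p of 0.074 with sh-Control RA array 1 alone. With normexp Ndufa8 and Ndufb4 had adjusted p-values of 0.0901 and 0.082.

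**Figure D5:**
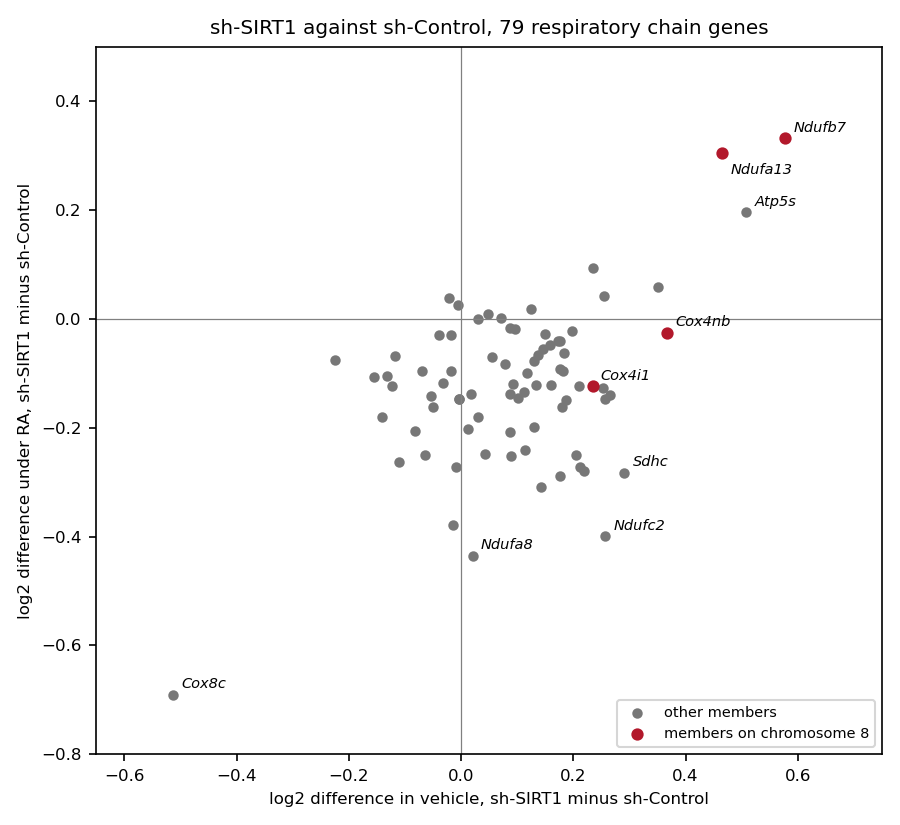
Each point is 1 of the 79 genes, placed by its log2 difference of sh-SIRT1 minus sh-Control in vehicle (horizontal) and under RA (vertical); the 4 members on chromosome 8 are red. Ndufb7 and Ndufa13 lie at the upper right, Ndufc2 and Sdhc are above 0 in vehicle and below 0 under RA.

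Other mitochondrial gene groups were read in the same fit, against falls of 27.2% and 35.1% of all genes in sh-Control and sh-SIRT1 cells, or 23.1% and 30.4% under quantile normalization. Of 75 mitochondrial ribosomal protein genes, which make the ribosome that translates the mitochondrial subunits of the chain, 52 fell and 1 rose in sh-Control cells (median -0.38), and 70 fell and 0 rose in sh-SIRT1 cells (median -0.57). Quantile normalization left 25 and 47 falls, with medians of -0.16 and -0.25. Mrpl16 fell by 0.81 ± 0.11 and 1.06 ± 0.10, and Mrps34 by 0.87 ± 0.13 and 1.03 ± 0.12. Of 24 assembly factors outside the name rule 13 and 16 fell and 0 rose (medians -0.38 and -0.45), with 9 and 15 falls under quantile normalization. Lrpprc, which stabilises mitochondrial mRNA, fell by 0.56 ± 0.09 and 0.72 ± 0.08. Of 16 partners of the chain (cytochrome c, coenzyme Q synthesis and dehydrogenases that feed it) 6 and 8 fell and 0 rose, and under quantile normalization 4 fell in each line (25%, near or below the share of all genes) while 4 and 1 rose. Gpd2, the mitochondrial glycerol phosphate dehydrogenase, fell by 0.57 ± 0.10 and 1.00 ± 0.10.

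Of 26 genes of the tricarboxylic acid cycle and pyruvate dehydrogenase, 7 fell and 3 rose in sh-Control cells and 13 fell and 2 rose in sh-SIRT1 cells, with medians of -0.16 and -0.35. The falls in sh-Control cells were 26.9% of the list, as over all genes, and under quantile normalization 4 and 5 genes fell (15.4% and 19.2%, below the shares of all genes), with medians of 0.08 and -0.03. Pdhb, a subunit of pyruvate dehydrogenase, fell by 0.73 ± 0.12 and 1.06 ± 0.11. Pdk1, also on this list, was called in both lines. Within slides it stood at -2.01 and -0.57 in sh-Control cells and at -2.38, -2.60 and -1.46 in sh-SIRT1 cells. The called rises include Pdk4 in sh-Control cells (1.44 and 0.98 within slides) and Idh2 in sh-SIRT1 cells (0.64, 0.71 and 1.04). Idh3a, a subunit of isocitrate dehydrogenase, fell by 0.89 ± 0.09 in sh-SIRT1 cells, and its response differed between lines by -0.64 ± 0.14 (adjusted p = 0.0226), a call that ended without any 1 of 5 vehicle arrays. Of 15 antioxidant, carrier and channel genes 9 fell and 2 rose in each line, and under quantile normalization 4 and 5 fell and 3 rose in each. Sod2, the mitochondrial superoxide dismutase, fell by 0.84 ± 0.08 and 1.09 ± 0.08, while Slc25a4, an ADP/ATP carrier, rose by 0.98 ± 0.16 and 1.08 ± 0.15.

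Of 19 regulators of mitochondrial genes 11 fell and 1 rose in sh-Control and 15 fell and 1 rose in sh-SIRT1 cells (medians -0.36 and -0.59), and 8 and 12 fell under quantile normalization. Ppargc1b, a coactivator of respiratory genes, fell by 1.38 ± 0.22 and 1.31 ± 0.20 (adjusted p = 1.68e-04 and 7.35e-05). It was lower in sh-SIRT1 than in sh-Control cells both in vehicle, by 0.96 ± 0.23 (adjusted p = 0.0202), and under RA, by 0.89 ± 0.18 (adjusted p = 0.00407), and its responses to RA differed by 0.07 ± 0.30 (adjusted p = 0.925). Tfam, which packages and transcribes mitochondrial DNA, stood at -0.22 ± 0.09 in sh-Control cells (adjusted p = 0.0591) and fell by 0.59 ± 0.09 in sh-SIRT1 cells. Nrf1 stood at 0.07 ± 0.14 in sh-Control cells (adjusted p = 0.716) and at -0.33 ± 0.13 in sh-SIRT1 cells, where its call was near the threshold (adjusted p = 0.0433) and ended without any 1 of 10 arrays. Esrra, the receptor ERR alpha, did not pass in either line, at 0.05 ± 0.13 and 0.26 ± 0.12 (adjusted p = 0.771 and 0.0709), but was higher in sh-SIRT1 cells by 0.40 under quantile normalization (adjusted p = 0.0108) and in both lines with sh-Control RA array 1 alone (0.46 and 0.26, adjusted p = 0.0104 and 0.00776). Ppargc1a had no probe among those tested. Of these lists, the cycle genes alone were below the share of all genes given above for the fit with sh-Control RA array 1 alone. With sh-Control RA array 1 alone, falls in sh-Control cells numbered 45 among the mitochondrial ribosomal genes, 8 among the assembly factors, 7 among the partners, 1 among the cycle genes, 5 among the antioxidant, carrier and channel genes and 8 among the regulators.

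Markers of other cell types were also read. Of 12 primitive endoderm markers, 8 were well above background on all 16 arrays, and Afp was so on 0 vehicle arrays. Their summed level (relative to the 75th percentile of the array, linear) was 2.99 to 4.34 on the vehicle arrays. It was 6.74 to 55.8 in sh-Control RA and 10.4 to 21.4 in sh-SIRT1 RA cells. That of 8 fibroblast markers, of which 5 were well above background on all arrays, was 6.23 to 6.998 in sh-Control vehicle and 5.84 to 17.2 in sh-Control RA cells, which overlap, and 1.32 to 2.15 in sh-SIRT1 vehicle and 6.92 to 12.9 in sh-SIRT1 RA cells, which do not. That of 6 genes of 2-cell-like cells, a rare state of stem cells, was 0.362 to 2.295 in vehicle, 319 to 455 in sh-Control RA and 158 to 324 in sh-SIRT1 RA cells. That of the 10 stem cell markers was 892 to 1199 in vehicle, 807 to 1264 in sh-Control RA and 691 to 978 in sh-SIRT1 RA cells. Of these 10, RA lowered 4 in the sh-Control line and 6 in the sh-SIRT1 line, or 2 and 6 under quantile normalization. Such linear sums give most weight to the brightest markers. The fibroblast markers' median deviation from their own means was -2.02, -1.615 and -1.41 on the sh-Control vehicle arrays. On the sh-Control RA arrays it was 0.08 to 1.89, without overlap. The sh-SIRT1 vehicle arrays, at -2.20, -1.81 and -1.65, overlapped with sh-Control vehicle by this measure. The part of other cell types in the respiratory chain differences was not tested.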

How the data were processed

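The 16 RNA samples were hybridised to 1-colour Agilent Whole Mouse Genome arrays. The deposited values are processed intensity values made by the authors with Feature Extraction 9.5.3.1, per the file headers, with spatial and multiplicative detrending; the deposited series matrix holds the same intensity values on all 45018 spots. Outlier spots were set to missing, log2 was taken, and each array's 75th percentile was subtracted. A probe was kept where every array of 1 or more groups had it well above background (26375 of 41174), and each gene was read from 1 probe, giving 17786 genes by array name. Probe positions refer to build mm7, per the file headers.

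Contrasts were tested two-sided with limma 3.58.1 in R 4.3.3 (a mean per group, all 16 arrays, 12 residual degrees of freedom) and Benjamini-Hochberg adjustment over all genes at 0.05; every adjusted p of a gene comes from this fit unless another setting is named. The script was tested on simulated data. Same-numbered arrays of both lines deviated together within each treatment (correlations 0.37 to 0.54 over genes), so the shared numbers were used as a replicate block in an alternative. Other alternatives were normexp (offset 50), quantile and array-median scaling, filters, probe choice, slide blocks, and leaving out each array. Named genes were, per comparison, up to 6 members of largest difference each way, isoform groups and members on chromosome 8, plus up to 3 genes each way per other list and 6 named regulators. Members and lists were chosen with earlier results of these data known. Array number limits the precision.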

Additional observations from a re-analysis of the deposited data

Results flagged for a closer look

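Among the members named by rule, 76 sets of 4 or 6 arrays of a group were examined for a single distant array, and 8 held one; chance alone gives about 1 in 20. In the sh-Control RA group, array 1 was high for Cox6c at 6.15 (5.73 to 5.79 on the others) and for Cox7c at 4.85 (4.31 to 4.37), and array 2 was low for Atp5l at 4.43 (4.72 to 4.77) and for Cox8a at 6.07 (6.52 to 6.59). In the sh-SIRT1 RA group, array 1 was high for Cox6b2 at 2.41 (2.00 to 2.15) and for Cox7a2l at 3.26 (3.01 to 3.09), array 3 for Atp5g2 at 5.76 (5.58 to 5.65) and array 6 for Ndufa4 at 5.06 (4.92 to 4.96).

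The response to RA differed between the lines, by the test of the difference, for Ndufa4 (-0.50), Ndufa9 (-0.48), Ndufc2 (-0.66) and Sdhc (-0.57), each with the larger fall in sh-SIRT1 cells.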

How the results depend on the processing

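Each result was recomputed under 29 alternatives (28 for the difference of responses, where a fit of only the groups compared gave none), 1 of them, centring on the members' median, added after the data were seen. Over the named genes and counts, 5690 values kept their direction and side of the threshold, 420 lost and 44 gained the call, 75 moved and 5 reversed; the causes were not tested.

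Members called in sh-Control and sh-SIRT1 cells under RA were 44 and 69. No share of all genes is given for the fit of only the groups compared, so its counts cannot be set against all genes. For sh-Control cells they were 22 with normexp (median -0.31), 18 with quantile normalization (median 0.0258), 14 with only the groups compared, 18 with sh-Control RA array 1 alone and 12 centred on the members; the array median gave a median of -0.39. For sh-SIRT1 cells they were 27 with quantile normalization (median -0.11) and 35 centred on the members; the medians with normexp and the array median were -0.54 and -0.75. Quantile normalization gave 11 of the 42 falls in sh-Control and 17 of the 67 in sh-SIRT1 cells the other sign. Of the genes named by rule it reversed Atp5f1 (0.18), Cox4i1 (0.0324), Cox7a2 (0.0887), Cox7a2l (0.0543) and Ndufb7 (0.17) in sh-SIRT1 cells. Atp5f1, 1 of the 67 falls, also differed between its probes that were well above background on all arrays. In sh-SIRT1 cells the chosen probe stood at -0.22 and its 2 other probes at -0.31 and 0.32.

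For the lines in vehicle, members called were 0 with normexp, 13 with the array median (median 0.24), 1 with only the groups compared, 9 with the replicate block and 7 centred on the members. Under RA they were 1 with normexp, 10 with quantile normalization (median -0.051), 9 with the array median, 7 with array 1 alone and 7 centred on the members. For the difference of responses they were 0 with normexp (9 at an unadjusted p under 0.05 in limma), 2 with quantile normalization (median -0.11), 2 with no filter on dim probes, 1 with slide as a fixed block, 10 with the replicate block, 1 with array 1 alone and 7 centred on the members; the array median gave a median of -0.34.

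Over all genes, the vehicle comparison of the lines called 272 with normexp, 950 with the slide block, 3425 with the replicate block, 2319 with array 1 alone and 2567 centred on the members, against 1541. Under RA it called 1118 with normexp and 1985 with array 1 alone, against 3635. RA in sh-Control cells called 4593 with normexp, against 8354. The difference called 23 with normexp, 276 with no filter, 89 with the slide block, 1629 with the replicate block, 197 with array 1 alone and 2251 centred on the members, against 645.

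Leaving out 1 array at a time gave 26 to 48 members and 6942 to 8500 genes for RA in sh-Control cells (median -0.27 to -0.19), 61 to 72 and 9042 to 10836 in sh-SIRT1 cells (-0.50 to -0.39), 2 to 6 and 720 to 2184 for the lines in vehicle (0.0553 to 0.16), 9 to 19 and 2453 to 4199 under RA (-0.15 to -0.10) and 2 to 12 and 196 to 1841 for the difference (-0.26 to -0.17). The number of arrays limits the precision.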
